A study of Capra hircus with 20 samples.

Results

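The 10 genes described here encode proteins that copy DNA or make its building blocks: MCM2, MCM3, MCM4, MCM5, MCM6, MCM7, RRM1, RRM2, PCNA and TYMS. They were taken from the mRNA table by name, by a rule that uses no measured value but was set with results of these libraries known, and are 10 of the 20587 gene symbols it holds. Transcripts of a gene were summed, which mattered for MCM7 with 3 transcripts and for no other member. RNA was sequenced from cultured goat (Capra hircus) cells in 4 groups of 5 libraries. Intramuscular preadipocytes (IMPA) came from the longissimus dorsi and subcutaneous preadipocytes (SPA) from subcutaneous fat of 7-day-old male Jianzhou Daer goats, and both were harvested at passage 3 on day 0 of induction. The intramuscular adipocytes (IMA) and subcutaneous adipocytes (SA) were such cells after 3 days in induction medium with oleic acid. All cells were grown in DMEM/F12 with fetal bovine serum, and no group was cultured for the same time without oleic acid, so the agent and the days in culture cannot be told apart. The labels number the libraries of a group from 1 to 5 without naming the goat or the dish, so p values measure the spread between these libraries only.

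Before a cell copies its DNA, the MCM2 to MCM7 proteins are loaded onto replication origins as a ring of 6 subunits, which later unwinds the double helix. PCNA is the sliding clamp that holds DNA polymerases on the template. Ribonucleotide reductase, made of the catalytic subunit RRM1 and the small subunit RRM2, turns ribonucleotides into deoxyribonucleotides, and thymidylate synthase (TYMS) makes the thymidine nucleotide that only DNA uses. Transcription of these genes is classically driven by E2F factors as cells enter S phase, and cultured preadipocytes usually leave the cycle when they mature, in some systems after a further round of division.

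Each value is an FPKM, a number of fragments scaled to the length of the transcript and to the mapped fragments of the library, as deposited by the authors. Counts per gene were not used here, so it is not known how many fragments each value rests on. Libraries held 373889 to 413880 FPKM in mRNAs and 15126 to 16961 symbols above 0. Skeletal muscle markers, 12 of the 13 listed genes, summed to between 3515 and 4033 FPKM in IMPA and between 12834 and 13595 in IMA, against 7.0 to 24.4 in SPA and 7.67 to 9.64 in SA. Of the adipocyte markers, 7 of 8 were in the table. They summed to 11.1 to 11.9 FPKM in IMPA, 7.19 to 8.41 in IMA, 10.7 to 12.1 in SPA and 9.90 to 12.1 in SA. The sum was thus lower in every IMA library than in any IMPA library, while SPA and SA overlapped. The defining adipocyte genes ADIPOQ, PLIN1 and LEP had group means of at most 0.419 FPKM, LEP was listed at 0 in every SA library, and PPARG reached 1.03 ± 0.252 FPKM (SD, n = 5) in SA. CEBPA, CIDEC and LPL also had means of at least 1 FPKM in SA. The number of the 7 with a mean under 1 FPKM was 5 in IMPA, 6 in IMA, 5 in SPA and 3 in SA. The names of the 4 groups are therefore those of the labels and the study, and do not rest on these markers. In every intramuscular library the muscle markers summed to far more than the adipocyte markers. The muscle sum was also higher in every IMA library than in any IMPA library. For both cell types the study reported lipid droplets by Oil Red O staining after induction. It also reported less Pref-1 mRNA than in preadipocytes, and took both as signs that differentiation had worked. The gene of Pref-1, DLK1, averaged under 1 FPKM over the 20 libraries and was not tested here. Endothelial markers summed to at most 1.19 FPKM in any library and blood markers to between 4.42 and 19.0. Stromal markers, 8 of 8 in the table, summed to 2691 to 3082 FPKM in IMPA, 2801 to 2978 in IMA, 8550 to 9063 in SPA and 7341 to 7824 in SA, and their part in the results on the 10 genes was not tested.

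All 10 genes had their highest mean in SA and their second highest in IMPA. No SA library overlapped an IMPA library for any of them, and the IMPA libraries lay above all IMA and SPA libraries for 9, the exception being TYMS, for which IMA reached into IMPA. IMA and SPA had the lower means, in either order, and their ranges overlapped for 8 of the 10 genes. The exceptions were RRM2, which was higher in every IMA library than in any SPA library, and MCM2, which was lower. The means of the 10 genes therefore fell with induction in the intramuscular cells and rose with it in the subcutaneous cells. The fall was the less firm of the changes. With the share of reads mapped to the genome as a covariate, given below, 1 of 10 falls and 10 of 10 rises kept their call. In bulk RNA, fewer cells in S phase and less of these transcripts per cell cannot be told apart.

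**Figure D1:**
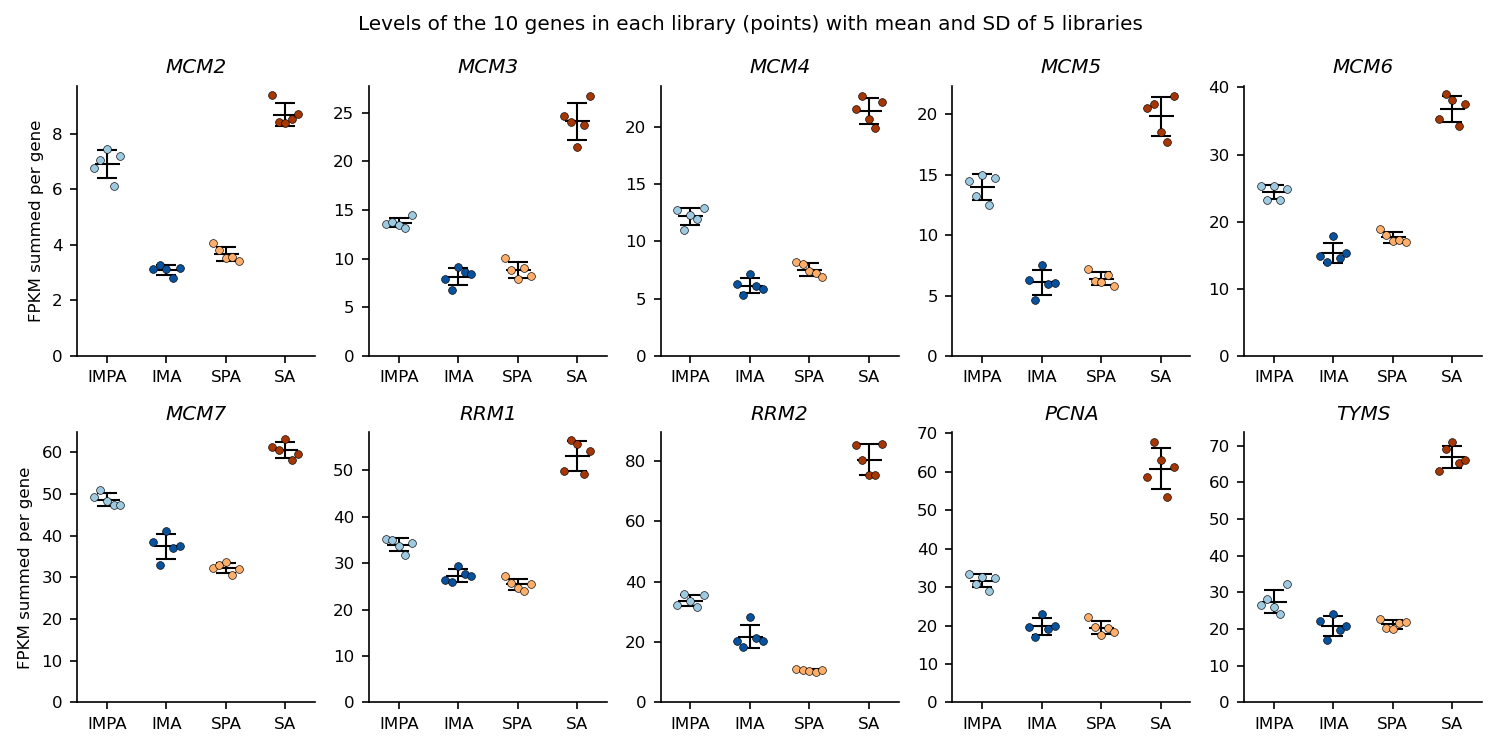
Level of each gene (vertical axis, FPKM summed per gene, starting at 0 with a scale for each gene) in the 5 libraries of each group (points), with the group mean and SD (bars). For every gene the SA libraries lie highest and the mean of IMPA comes next. The IMPA libraries lie above all IMA and SPA libraries except for TYMS, where 1 IMA library reaches just above 1 IMPA library.

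The helicase subunit MCM5 was the member that fell most in the intramuscular cells. Its levels in IMPA libraries 1 to 5 were 14.5, 13.2, 15.0, 12.5 and 14.7 FPKM, and in IMA 6.27, 4.67, 7.53, 5.98 and 6.05. In SPA it stood at 7.19, 6.21, 6.15, 6.70 and 5.78 FPKM, and in SA at 20.5, 20.9, 18.5, 17.7 and 21.5. Every IMA library lay below every IMPA library and every SA library above every SPA library, while IMA and SPA overlapped. The mean fell 2.29-fold in the intramuscular cells, or by 1.09 ± 0.092 on the log2(FPKM + 1) scale (SE, limma adjusted p = 1.6e-06), and rose 3.10-fold in the subcutaneous cells, a log2 change of 1.49 ± 0.065 (limma adjusted p = 2.5e-09).

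MCM2 was the least abundant subunit. It measured 6.78, 7.06, 7.44, 6.13 and 7.19 FPKM in IMPA and 3.14, 3.27, 3.12, 2.81 and 3.15 in IMA. In SPA it measured 4.06, 3.81, 3.52, 3.57 and 3.43 FPKM, and in SA 9.39, 8.44, 8.39, 8.54 and 8.71. The 4 groups did not overlap, and MCM2 was the only member for which IMA lay wholly below SPA. Its log2 change was -0.95 ± 0.055 in the intramuscular and 1.05 ± 0.051 in the subcutaneous cells (limma adjusted p = 6.3e-08 and 6.5e-09).

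MCM7, the most abundant subunit, changed least of the 6 in both cell types. Its levels were 49.3, 50.8, 48.3, 47.2 and 47.2 FPKM in IMPA and 38.5, 33.0, 41.2, 37.0 and 37.5 in IMA. They were 32.1, 32.9, 33.7, 30.6 and 31.9 FPKM in SPA and 61.1, 60.5, 63.1, 58.1 and 59.6 in SA. Both stage comparisons separated all libraries, with a fall of 1.3-fold and a rise of 1.87-fold. The log2 changes were -0.37 ± 0.052 and 0.89 ± 0.034 (limma adjusted p = 7.9e-05 and 8.3e-10).

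The other 3 subunits lay between these. MCM4 went from 12.2 ± 0.774 FPKM (SD, n = 5) in IMPA to 6.14 ± 0.646 in IMA and from 7.54 ± 0.567 in SPA to 21.4 ± 1.12 in SA. MCM3 went from 13.7 ± 0.490 to 8.16 ± 0.906 FPKM in the intramuscular cells and from 8.81 ± 0.819 to 24.1 ± 1.88 in the subcutaneous cells. MCM6 went from 24.4 ± 1.07 to 15.3 ± 1.48 FPKM and from 17.7 ± 0.822 to 36.8 ± 1.97. The intramuscular log2 changes of MCM4, MCM3 and MCM6 were -0.89, -0.69 and -0.64, and the subcutaneous ones 1.39, 1.36 and 1.02.

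As a ring the 6 subunits work in equal numbers, yet their transcripts did not stand in equal amounts. FPKM is per length of transcript, so levels of different genes can be set side by side. MCM7 was the highest and MCM2 the lowest subunit in 5 of 5 libraries of every group. The highest exceeded the lowest by 6.49 to 7.70 times in IMPA, 10.1 to 13.2 times in IMA, 7.91 to 9.59 times in SPA and 6.51 to 7.52 times in SA. The spread among subunits was thus widest in IMA, whose libraries did not overlap those of any other group. The sum over the 6 subunits was 120 ± 3.32 FPKM (SD, n = 5) in IMPA, 76.3 ± 6.70 in IMA, 76.3 ± 2.92 in SPA and 171 ± 5.66 in SA.

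The make-up of that sum differed between groups in a way that the scaling of libraries cannot change. MCM7 took 38.9% to 42.7% of the sum in IMPA and 47.9% to 50.1% in IMA, against 39.8% to 44.5% in SPA and 33.8% to 37.1% in SA. MCM5 took 11.0% to 12.3% in IMPA and 6.97% to 8.76% in IMA, against 7.89% to 9.01% in SPA and 10.9% to 12.2% in SA. The shares of MCM7 did not overlap between the stages of either cell type, and neither did those of MCM5. For MCM6 the shares of 19.5% to 20.8% in IMPA and 19.3% to 20.9% in IMA did overlap. These shares were compared after their values were seen and carry no test.

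**Figure D2:**
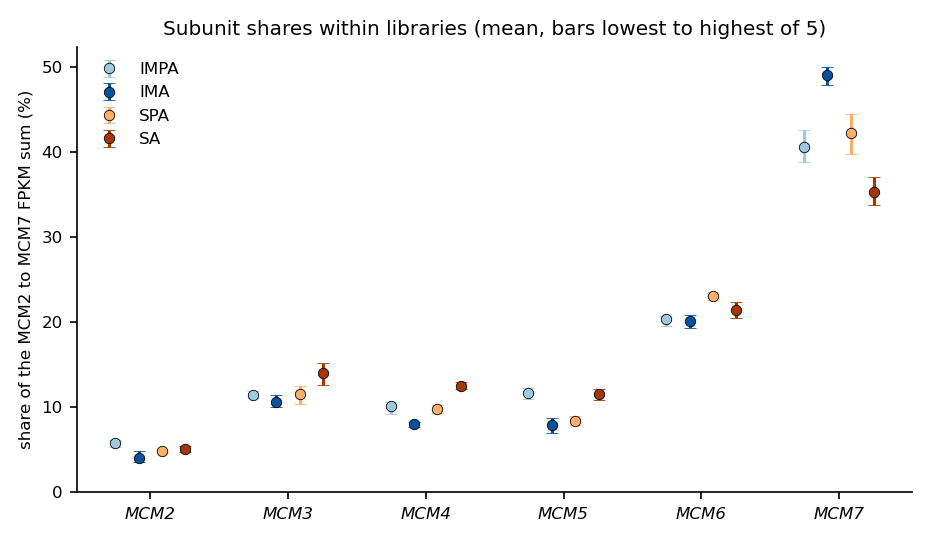
Share of each subunit in the summed FPKM of MCM2 to MCM7 (vertical axis, %) for the 4 groups. Points are means of 5 libraries and bars run from the lowest to the highest library. MCM7 reaches its highest share in IMA and its lowest in SA, and MCM5 has lower shares in IMA and SPA than in IMPA and SA.

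MCM7 was the only member with more than 1 annotated transcript. XM_005697840.3 and XM_005697841.3 carried most of its level, with means of 30.4 and 17.6 FPKM in IMPA, 20.1 and 17 in IMA, 17.5 and 13.2 in SPA and 35.8 and 22.8 in SA. XM_018039868.1 was listed at 0 in 1 IMPA, 3 IMA, 1 SPA and 3 SA libraries. The split was unsteady among libraries of a group: XM_005697840.3 held 42.3% to 82.5% of the gene's level in IMA and 39.3% to 80.3% in SPA. The sum over the 3 transcripts varied far less, with a coefficient of variation of 7.89% in IMA and 3.57% in SPA. Transcripts that share exons share fragments, so the split between them is an estimate.

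RRM2, the small subunit of ribonucleotide reductase, had the largest rise of the 10 genes. Its levels in SPA libraries 1 to 5 were 11.1, 10.9, 10.5, 10.2 and 10.9 FPKM, and in SA 85.2, 80.4, 75.3, 75.3 and 85.6. In IMPA it measured 32.2, 35.8, 33.6, 31.5 and 35.5 FPKM, and in IMA 20.5, 18.4, 28.2, 21.4 and 20.4. No group overlapped another, which held for RRM2 and MCM2 alone among the members. RRM2 rose 7.52-fold in the subcutaneous cells, a log2 change of 2.80 ± 0.044 (limma adjusted p = 3.1e-12), and fell 1.55-fold in the intramuscular cells, a log2 change of -0.62 ± 0.090 (limma adjusted p = 1.1e-04).

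RRM1, the catalytic subunit, moved less. It measured 35.3, 35.0, 33.7, 31.7 and 34.3 FPKM in IMPA and 26.5, 25.9, 29.5, 27.6 and 27.1 in IMA. It measured 27.3, 25.6, 24.7, 23.9 and 25.5 FPKM in SPA and 49.9, 56.5, 55.6, 49.3 and 54.2 in SA. The stages were apart in both cell types, with log2 changes of -0.31 ± 0.043 and 1.03 ± 0.048 (limma adjusted p = 8.2e-05 and 4.0e-09).

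Both subunits are needed for an active enzyme, so the ratio of RRM2 to RRM1 was taken within each library, where the scaling of the library has no part. In SPA the ratio was 0.405, 0.425, 0.424, 0.425 and 0.425, and in SA 1.71, 1.42, 1.35, 1.53 and 1.58. In IMPA it was 0.914, 1.02, 0.996, 0.993 and 1.04, and in IMA 0.774, 0.712, 0.955, 0.777 and 0.753. RRM2 was thus below RRM1 in every SPA and IMA library and above it in every SA library. The SPA and SA ratios were apart, with a log2 difference of 1.85 ± 0.060 (SE, two-sided exact permutation test, p = 0.00794, adjusted p = 0.0106 over 4 comparisons), and 0.00794 is the lowest p that 5 libraries against 5 allow.

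The intramuscular ratios overlapped, since IMA library 3 at 0.955 exceeded IMPA library 1 at 0.914. Their log2 difference was -0.33 ± 0.079 (two-sided exact permutation test, p = 0.0159, adjusted p = 0.0159). On day 0 the ratio was higher in IMPA than in SPA by 1.24 ± 0.034 on the log2 scale, and on day 3 lower in IMA than in SA by 0.94 ± 0.093 (two-sided exact permutation tests, p = 0.00794 and adjusted p = 0.0106 for both). Ratios of both pairs of groups were apart.

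**Figure D3:**
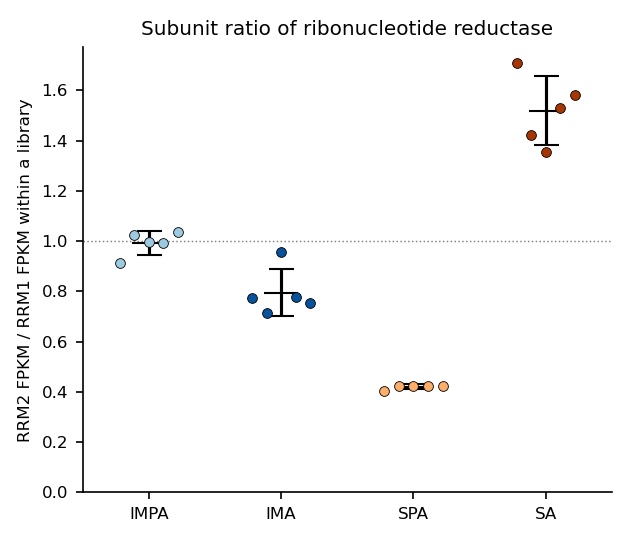
Ratio of RRM2 to RRM1 FPKM (vertical axis, starting at 0) in each library (points), with the mean and SD of the 5 libraries per group (bars) and a dotted line at equal levels. SPA libraries cluster at 0.421 ± 0.00875 and SA libraries at 1.52 ± 0.138, while IMPA and IMA libraries touch.

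PCNA, the clamp, measured 33.5, 30.8, 32.6, 29.1 and 32.3 FPKM in IMPA and 19.7, 17.1, 23.0, 19.2 and 19.9 in IMA. In SPA its levels were 22.3, 19.5, 17.7, 19.5 and 18.4 FPKM, and in SA 58.6, 67.7, 63.1, 53.5 and 61.2. The stages did not overlap in either cell type. PCNA fell 1.6-fold in the intramuscular cells, a log2 change of -0.66 ± 0.067 (limma adjusted p = 6.8e-06), and rose 3.12-fold in the subcutaneous cells, a log2 change of 1.59 ± 0.068 (limma adjusted p = 2.3e-09).

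TYMS had the weakest intramuscular separation. Its IMPA levels were 26.4, 28.2, 26.1, 24.1 and 32.3 FPKM and its IMA levels 22.2, 17.1, 24.2, 19.8 and 20.8. In SPA it measured 22.6, 20.2, 20.01, 21.6 and 21.8 FPKM, and in SA 63.1, 69.0, 70.9, 65.2 and 66.0. IMA library 3 reached just above IMPA library 4, so TYMS was the only member whose stages overlapped, and it did so only in the intramuscular cells. The intramuscular log2 change was -0.38 ± 0.090 (limma adjusted p = 0.0031) and the subcutaneous one 1.61 ± 0.043 (limma adjusted p = 6.6e-11), a 3.15-fold rise.

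Libraries of a group stayed close for these genes, except in IMA. The median coefficient of variation over the 10 genes was 5.58% in IMPA, 6.08% in SPA, 5.80% in SA and 10.6% in IMA. IMA library 3 was the highest of its group for 9 genes, all but MCM2, with a median deviation of 0.22 on the log2 scale. IMA library 2 was the lowest for 9 genes, all but MCM2, for which it was the highest, with a median deviation of -0.20. Among the other groups, SPA library 1 was the highest for 9 genes, IMPA library 4 the lowest for 8 and SA library 4 the lowest for 7. Leaving out any one library changed no call of a member.

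All 10 genes averaged 1 FPKM or more across the libraries and were among the 11432 genes tested. In the intramuscular cells 10 of 10 were lower in IMA at a limma adjusted p under 0.05, where 40.2% of all genes tested were lower and 19.9% higher. The libraries did not overlap for 9 of the 10, against 29.2% of all genes that were lower without overlap. The median log2 change of the 10 genes was -0.65, beside -0.09 over all genes tested.

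In the subcutaneous cells 10 of 10 were higher in SA, where 26.1% of all genes tested were higher and 26.0% lower. With values scaled to the mRNA sum of each library, the 10 genes remained higher while the calls over all genes moved from 2982 higher and 2975 lower to 2327 and 4052. None of the 10 overlapped between SPA and SA, against 19.8% of all genes that were higher without overlap. Their median log2 change was 1.38, beside -0.01 over all genes.

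The change with stage differed between the cell types for 10 of 10 genes. The difference, intramuscular minus subcutaneous, was below 0 at a limma adjusted p under 0.05 for each, where 34.6% of all genes tested were below and 20.7% above. It ran from -3.42 ± 0.106 for RRM2 to -1.26 ± 0.063 for MCM7, with a median of -2.02 beside -0.08 over all genes.

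**Figure D4:**
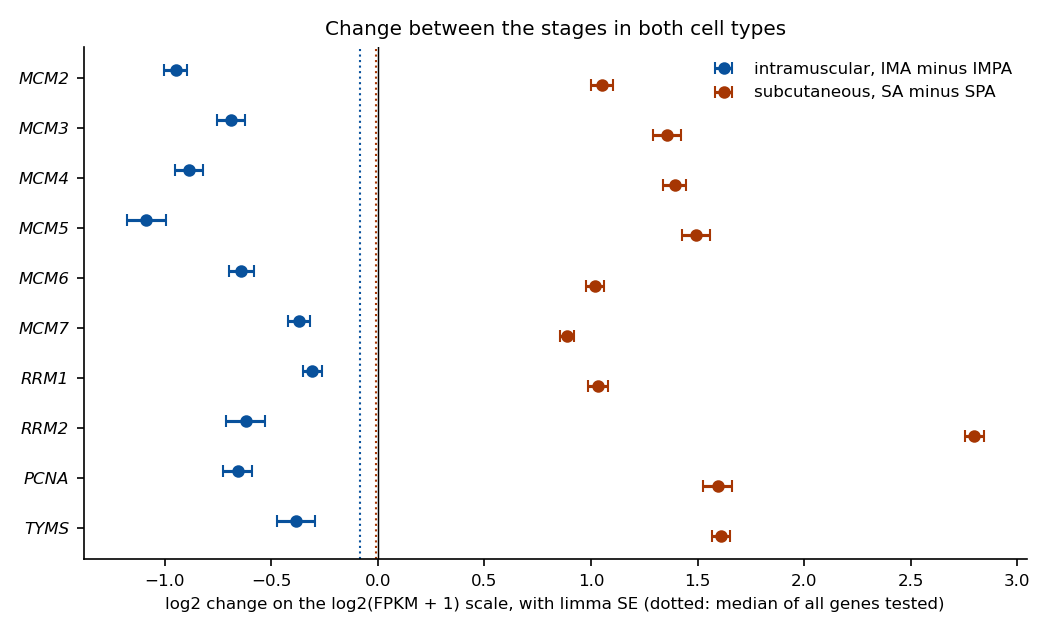
Log2 change from preadipocytes to adipocytes (horizontal axis, on the log2(FPKM + 1) scale) of each gene in intramuscular (blue) and subcutaneous (brown) cells, with limma standard errors from 5 libraries per group. All 10 intramuscular values lie below 0 and all 10 subcutaneous values above, with RRM2 at 2.80 farthest out, and the dotted lines mark the medians of all genes tested.

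The share of reads mapped to the genome, as the study's alignment table gives it, was higher in every IMPA library than in every IMA library and higher in every SPA library than in every SA library, so it cannot be told apart from the stage. It was also higher in every IMPA library than in every SPA library and in every IMA library than in every SA library, so it cannot be told apart from the cell type either. These separations differed in size. IMPA lay far above every other group, while SPA and SA nearly touched. The intramuscular stage and preadipocyte comparisons both contain IMPA. With that share as a covariate in limma, 1 of 10 genes remained lower in IMA, MCM2 with a log2 change of -0.83 (limma adjusted p = 0.0285), and the estimates of the others ran from -0.36 for MCM5 to 0.11 for TYMS. RRM2 and RRM1 then stood at -0.14 and -0.13. Of all 11432 genes tested, that fit called 276 lower and 500 higher in IMA. The subcutaneous rise kept 10 of 10 calls with the covariate, from 0.96 for MCM7 to 2.84 for RRM2, and so did the difference between the cell types, from -3.04 for RRM2 to -1.13 for RRM1. Over all genes tested, 2118 were then higher and 1701 lower in SA. Differences between the cell types were called below 0 for 1136 genes and above for 987. Of the skeletal muscle markers, 11 of 12 were higher in IMA than in IMPA, against 19.9% of all genes tested. With the covariate 11 of the 12 were still higher and 0 lower, with a median log2 change of 2.13. Most of these markers thus rose where the 10 genes fell, and their part in that fall was not tested.

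On day 0 the 10 genes were higher in the intramuscular cells. All 10 were higher in IMPA than in SPA, where 42.3% of all genes tested were higher and 32.9% lower, and none overlapped, against 35.9% of all genes that were higher without overlap. RRM2 differed by 1.57 ± 0.043 on the log2 scale (limma adjusted p = 4.7e-12) and MCM5 by 1.02 ± 0.062 (limma adjusted p = 1.1e-08), while TYMS differed least, by 0.35 ± 0.067 (limma adjusted p = 4.5e-04). With the mapped share as a covariate 2 genes kept the call, RRM2 at 1.60 and MCM7 at 0.69. Of all 11432 genes tested, 1370 were then higher and 1048 lower in IMPA.

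By day 3 the order had turned. All 10 genes were lower in IMA than in SA, where 43.4% of all genes tested were lower and 29.0% higher, and none overlapped, against 34.7% of all genes that were lower without overlap. The log2 differences ran from -1.85 ± 0.088 for RRM2 to -0.68 ± 0.052 for MCM7, with PCNA at -1.57 and TYMS at -1.64. They kept 10 of 10 calls with the covariate, where 3788 of all 11432 genes tested were lower and 2388 higher. Each group stands in 2 of these 4 comparisons, so they are not independent of each other.

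The loading and firing of origins draws on many more genes, of which a list of 22 was tested for 20. In the intramuscular cells 14 fell and 0 rose, where 40.2% of all genes tested fell and 19.9% rose. The median log2 change of the list was -0.31. RECQL4, a helicase of origin firing, fell by 0.63, GINS1, a part of the active helicase, by 0.56, and CDC6, which helps to load the MCM ring, by 0.55. Subcutaneous cells had 18 that rose and 0 that fell, where 26.1% of all genes tested rose and 26.0% fell. The rises, with a list median of 0.77, were led by RECQL4 at 1.42, MCM10 at 1.38 and CDC6 at 1.35. GMNN, which blocks reloading of the ring and was picked after its values were seen, stood at 12.3 ± 0.672 FPKM in IMPA, 12.4 ± 0.829 in IMA, 11.98 ± 1.27 in SPA and 29.0 ± 1.80 in SA.

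Of 30 genes of DNA polymerases, clamp loading and the fork, 21 fell and 2 rose in the intramuscular cells. Over all genes tested 40.2% fell and 19.9% rose. The median log2 change of the list was -0.22. POLE, the catalytic subunit of a leading-strand polymerase, fell by 0.54, while POLD4, a small subunit of a polymerase that PCNA holds, rose by 0.80 from 11.1 to 20.02 FPKM. Of the 30, 27 rose and 0 fell in the subcutaneous cells, against 26.1% and 26.0% of all genes tested, with a median of 0.75. The fork checkpoint mediator CLSPN rose by 1.57, POLE2 by 1.41 and the primase subunit PRIM1 by 1.29.

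Of 12 genes of deoxynucleotide supply, 10 fell and 1 rose in the intramuscular cells, against 40.2% and 19.9% of all genes tested. The median log2 change of the list was -0.43. TK1, which salvages thymidine, fell by 0.68 from 9.83 ± 0.469 to 5.76 ± 0.556 FPKM (SD, n = 5). RRM2B, the alternative small subunit that p53 induces, rose by 0.41, from 5.00 ± 0.338 to 7.0 ± 0.487 FPKM, where RRM2 fell. RRM2B was also higher in every SA library (4.82 to 5.44 FPKM) than in any SPA library (3.82 to 4.41), where RRM2 rose as well. In the subcutaneous cells 9 rose and 1 fell, against 26.1% and 26.0% of all genes tested, with a median of 0.31. TK1 rose by 1.58, DTYMK, the next kinase towards thymidine triphosphate, by 1.48 and DCK, which salvages other deoxynucleosides, by 1.47. SAMHD1, which breaks deoxynucleotides down, fell in both cell types, by 0.54 and by 0.83.

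**Figure D5:**
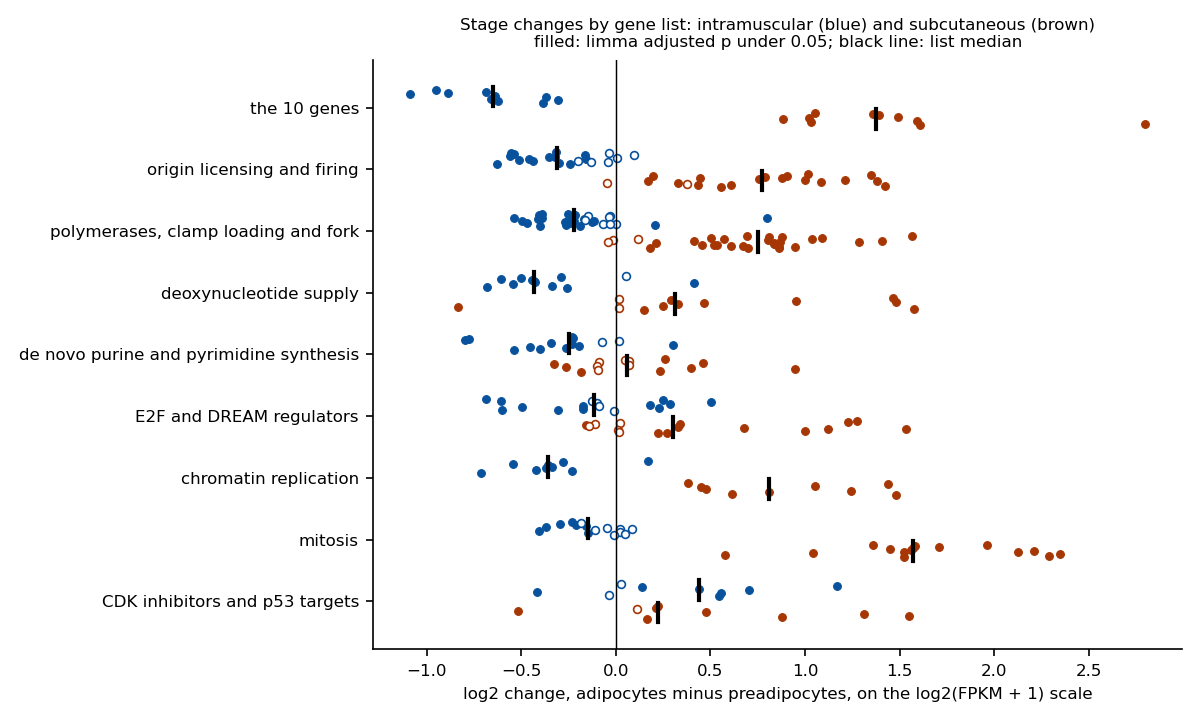
Log2 change from preadipocytes to adipocytes (horizontal axis) of each gene tested in the lists named on the vertical axis, in intramuscular (blue) and subcutaneous (brown) cells. Filled points passed limma's adjusted p under 0.05, and black lines are list medians, which for the 10 genes are -0.65 and 1.38.

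The pathways that make purines and pyrimidines afresh, for RNA as well as DNA, had shares of calls near those of all genes in the subcutaneous cells. In the intramuscular cells 11 of 14 genes fell and 1 rose, against 40.2% and 19.9% of all genes tested. The median log2 change of the list was -0.25. CTPS1, which makes cytidine triphosphate, fell by 0.80, and CAD, which starts pyrimidine synthesis, by 0.77. In the subcutaneous cells, where 26.1% of all genes tested rose and 26.0% fell, 5 rose and 3 fell with a median of 0.06, or 5 and 6 with a median of -0.01 when values were scaled to the mRNA sum. There CAD stood at 0.07 and CTPS1 at -0.09, neither called, while PFAS, a step of purine synthesis, rose by 0.95.

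Over these 4 lists together, 56 of 76 genes fell and 4 rose in the intramuscular cells and 59 rose and 4 fell in the subcutaneous cells. Of all genes tested, 40.2% fell and 19.9% rose in the former, and 26.1% rose and 26.0% fell in the latter. With the mapped share as a covariate the counts over the 76 genes were 1 and 1, and 54 and 2. Over all 11432 genes tested, those fits called 276 falls and 500 rises in the intramuscular cells. In the subcutaneous cells they called 2118 rises and 1701 falls. On day 0, 44 were higher and 9 lower in IMPA than in SPA, against 42.3% and 32.9% of all genes tested. The covariate left 6 higher and 1 lower, beside 1370 and 1048 of all 11432 genes tested. On day 3, 4 were higher and 65 lower in IMA than in SA, against 29.0% and 43.4% of all genes tested. The covariate left 3 higher and 63 lower, beside 2388 and 3788 of all 11432 genes tested. The change with stage differed between the cell types for 72 of the 76, with 68 differences below 0 and 4 above. Of all genes tested, 34.6% were below and 20.7% above. With the covariate, 44 of the 76 were below 0 and 1 above, beside 1136 and 987 of all 11432 genes tested. Where a list had 0 genes in a direction in either stage comparison, limma also found 0 at an unadjusted p under 0.05, and scaling to the mRNA sum put 1 origin gene lower in the subcutaneous cells. The lists were drawn up with results of these libraries known and carry no test of their own.

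E2F1, the activating factor whose targets include these genes, moved like them. It measured 3.95, 3.53, 3.32, 3.57 and 3.77 FPKM in IMPA and 1.85, 1.61, 2.22, 1.80 and 1.90 in IMA, and 1.87, 1.29, 1.31, 1.32 and 1.84 in SPA and 5.29, 5.46, 5.24, 4.25 and 5.31 in SA. The stages were apart in both cell types, with log2 changes of -0.69 ± 0.062 and 1.28 ± 0.085 (limma adjusted p = 2.5e-06 and 1.1e-07). Of 16 E2F and DREAM genes, the complexes that switch such targets on and off, 7 fell and 5 rose in the intramuscular cells, where 40.2% of all genes tested fell and 19.9% rose, so these counts are no result about the list. E2F4 fell by 0.61 and E2F5 rose by 0.50. In the subcutaneous cells 10 rose and 1 fell, against 26.1% and 26.0% of all genes tested, and MYBL2 rose by 1.53.

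Among genes that pack newly made DNA, most fell in the intramuscular and all rose in the subcutaneous cells. Of 9 tested, 8 fell and 1 rose in the intramuscular cells, against 40.2% and 19.9% of all genes tested. UHRF1, which maintains DNA methylation behind the fork, fell by 0.71, and ASF1A, a histone chaperone, rose by 0.17. All 9 rose in the subcutaneous cells, against 26.1% of all genes tested, among them UHRF1 by 1.48 and ASF1B by 1.44.

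Genes of mitosis, the step after DNA copying, did not all move in the intramuscular cells. Of 15 tested, 7 fell and 0 rose, where 40.2% of all genes tested fell, so the share that fell was near the background. Their median log2 change was -0.15, and MKI67, CCNB1 and BUB1 fell by 0.40, 0.37 and 0.29. TOP2A and CDK1, named because they led the subcutaneous rise, measured 31.0 ± 3.59 and 17.1 ± 1.5 FPKM (SD, n = 5) in IMPA and 32.0 ± 2.44 and 18.2 ± 0.754 in IMA, with log2 differences of 0.05 and 0.09 (limma adjusted p = 0.60 and 0.21). All 15 rose in the subcutaneous cells, against 26.1% of all genes tested, with a median of 1.57. NUSAP1, TOP2A and CDK1 rose there by 2.35, 2.29 and 2.21. The summed level of the 15 genes ran from 151 to 197 FPKM in IMPA and 156 to 179 in IMA, which overlap, and from 64.6 to 76.4 in SPA and 273 to 305 in SA, which do not. Whether the replication and mitosis lists differ in their intramuscular change was not tested.

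Genes of a joint list of inhibitors of cyclin-dependent kinases and of p53 targets rose more often than they fell in both cell types. In the intramuscular cells 6 of 9 rose and 1 fell, against 19.9% and 40.2% of all genes tested. CDKN1A, which encodes p21, a protein that also binds PCNA, rose by 1.17 ± 0.053 (limma adjusted p = 6.3e-09), from between 49.2 and 56.8 FPKM in IMPA to between 109 and 128 in IMA. In the subcutaneous cells 7 of 9 rose and 1 fell, against 26.1% and 26.0% of all genes tested. CDKN1A stood at 70.7 to 75.6 FPKM in SPA and 82.1 to 89.8 in SA, a log2 change of 0.21 ± 0.034 (limma adjusted p = 2.2e-04). Its change differed between the cell types by 0.95 ± 0.065 (limma adjusted p = 6.6e-11). CDKN2C fell by 0.42 in the intramuscular and rose by 1.31 in the subcutaneous cells, while CDKN2D rose in both, by 0.55 and 1.55. With the mapped share as a covariate, the intramuscular calls were 1 fall and 0 rises among E2F and DREAM genes and likewise among the chromatin genes, 0 and 0 in mitosis, and 0 falls and 2 rises among the inhibitors. Over all 11432 genes tested, that fit called 276 falls and 500 rises. At an unadjusted limma p under 0.05 the falls and rises of these lists were 1 and 2, 3 and 0, 1 and 0, and 0 and 5. No count over all genes at the unadjusted threshold stands beside these, so they are not read as a result about the lists.

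Genes whose profile lay closest to the mean of the 10 were sought among the other 11422 genes tested, by the root mean square distance of log2 values centred over the 20 libraries. The nearest was DNAJC9, a chaperone of histones, at 0.0945, followed by HELLS, a chromatin remodeller, at 0.115 and ERCC6L, a helicase of mitosis, at 0.126. RECQL4, CDC6, CENPP, MTFR2, POLE2, SPC25 and E2F1 followed, the last at 0.155, where the median gene lay at 0.618. DNAJC9 measured 8.70 FPKM in IMPA, 4.91 in IMA, 4.82 in SPA and 13.6 in SA on average. Among the 10 genes themselves, MCM3 lay nearest to the mean of the others at 0.0916, and RRM2 farthest at 0.557, beyond MCM7 at 0.295.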

How the data were processed

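Total RNA of 20 goat cell samples was sequenced by the authors from strand-specific libraries. Per the labels and the study's methods, reads were aligned to the goat assembly ARS1 with HISAT2 2.0.4, and FPKM values per transcript were calculated with StringTie 1.3.1 and Ballgown. The deposited mRNA table gives FPKM, which are not counts, and was used without realignment. The lncRNA tables were not used here.

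FPKM were summed per gene symbol and analysed as log2(FPKM + 1), a scale that understates changes of low genes, without further scaling. The 11432 genes whose mean across all libraries reached 1 FPKM were tested. Pairs of groups were compared in fits of 10 libraries, and the interaction of stage and cell type in a fit of 20, with limma 3.58.1 (R 4.3.3; moderated variances, trend allowed). Adjusted p values are Benjamini-Hochberg over all genes tested, two-sided, with a threshold of 0.05. Fold changes are ratios of mean FPKM. The RRM2 to RRM1 ratio was compared with exact permutation tests in scipy 1.17.1, adjusted over 4 comparisons. Python 3.11.15, numpy 2.4.6, pandas 2.3.3 and matplotlib 3.10.9 were used. The fits were tested on simulated data.

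The 10 genes and all lists were chosen with earlier results of these data known. Of each further list and comparison, at most the 3 genes with the largest and the 3 with the smallest log2 change among those called may be named, with the 10 nearest genes. Any other gene was picked after its values were seen. All 10 symbols matched a RefSeq gene ID of the same symbol (assembly ARS1.2). Its coordinates were not used, because the files use another build. PRPS1, PAICS, ADSS2, PCLAF, CDKN2A, MYH3 and FABP4 were looked up under these symbols only and are not analysed here. GINS2, TICRR, E2F7 and E2F8 lay under the minimum.

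Alternatives were other filters, a pseudocount of 0.1, 2 scalings, the most abundant transcript, a joint fit of all groups, a block for the replicate number, a covariate for the mapped share, no variance trend, and libraries left out. SPA library 1 and SA library 5, which lost few reads in filtering by the study's read table, were also left out together.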

Additional observations from a re-analysis of the deposited data

Results flagged for a closer look

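The change with stage differed between the cell types for each of the 10 genes, in a direct test over 20 libraries (limma adjusted p from 6.4e-16 to 1.1e-12). The intramuscular minus the subcutaneous log2 change was -3.42 for RRM2, -2.58 for MCM5, -2.28 for MCM4 and -2.25 for PCNA. It was -2.04 for MCM3, -2.001 for MCM2, -1.99 for TYMS and -1.66 for MCM6. It was smallest in size for RRM1 at -1.34 and MCM7 at -1.26. Of all genes tested, 34.6% had a difference below 0 that passed the same threshold. In none of the 40 sets of 5 libraries, 10 genes in 4 groups, did a single library stand apart by Dixon's test.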

How the results depend on the processing

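Over single genes and comparisons, 1130 values were recomputed under alternatives, of which 1113 kept their direction and their side of the threshold. The other 17 came from the fits with the mapped share as a covariate. There the number of members called was 1 in the intramuscular stage comparison and 2 in the preadipocyte comparison, against 10 and 10. TYMS turned from -0.38 to 0.11 in the former (limma adjusted p = 0.853). Over all genes tested, the covariate took the calls from 6867 to 776 in the intramuscular, 5957 to 3819 in the subcutaneous, 8588 to 2418 in the preadipocyte, 8277 to 6176 in the adipocyte and 6319 to 2123 in the interaction comparison. The share separates the groups of every pair, both stages and both cell types, and the cause was not tested. Without the covariate, the highest limma adjusted p over the alternatives of any member was 0.0127, for TYMS in the intramuscular cells.

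The replicate numbers are not known to mark a goat or a batch. Over all genes, libraries of the same number deviated together with a correlation over 0.1 in 2 of 5 intramuscular and 1 of 5 subcutaneous pairs, and in 0 of 5 in both comparisons between the cell types. The highest of these was 0.121 in the intramuscular and 0.122 in the subcutaneous cells, where libraries of unlike number reached 0.119 and 0.350. The best match had the same number for 3 of 5 IMA and 1 of 5 SA libraries. These values do not settle whether the numbers mark pairs. With the replicate number as a block, 10 of 10 members kept their call in every comparison. For the RRM2 to RRM1 ratio the paired differences were the same, -0.33, 1.85, 1.24 and -0.94 for the intramuscular, subcutaneous, preadipocyte and adipocyte comparisons, each with p = 0.0625 in an exact test of sign changes, the smallest p that 5 pairs allow, which says nothing of their stability.

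FPKM carry no counts, so no limit from depth can be set on a single value. Subtle changes of low genes such as MCM2 are understated on the scale used.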
